A study of Drosophila melanogaster with 4 samples.

Results

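The genes described here encode the proteins of the Drosophila mitochondrial ribosome, taken as every nuclear gene whose symbol starts with mRpL (large subunit) or mRpS (small subunit). The deposited tables list transcripts, which were assigned to genes with the Ensembl fly annotation on BDGP6.54 and summed. This gave 73 genes, 47 mRpL and 26 mRpS, of 17677 nuclear genes with an entry and 13069 with at least 1 read. The mitochondrial ribosome is built from rRNAs encoded by mitochondrial DNA and from these proteins, whose mRNAs leave the nucleus, are translated on cytosolic ribosomes and whose products are imported. Its large subunit joins amino acids into protein, while the small subunit reads the codons of the mitochondrial mRNAs, which encode subunits of the oxidative phosphorylation system.

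The libraries came from a mitochondrial ribosome profiling experiment on third-instar larvae (the last larval stage). DmAngel KO larvae (Angel-/-, 2 libraries) carried a deletion in DmAngel, the fly relative of an RNA 3′-end phosphatase, made with CRISPR/Cas9 and backcrossed to a white background, and control larvae (Angel+/+, the wDah strain, 2 libraries) were intact at this gene. A single knockout line, KO-1, was profiled, and both genotypes were taken 4 days after egg laying. In both genotypes a crude mitochondrial lysate was digested with RNase T1, a nuclease that cuts RNA, and the RNA protected in the pooled monosome fractions of a sucrose gradient was sequenced as small RNA. A crude preparation can also carry cytosolic ribosomes. The reads of these 73 genes are those of nuclear mRNA present in that preparation, and what protected it was not tested. They do not measure mitochondrial translation.

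The libraries differed in depth, with 8175475 and 8227127 reads in the DmAngel KO libraries and 4159707 and 1789947 in the control libraries. Nuclear transcripts held 6.93% and 6.30% of these reads in DmAngel KO larvae, against 31.9% and 25.5% in control larvae, leaving 566679 and 518033 nuclear reads against 1324943 and 457054. DmAngel itself had 1 and 1 reads in DmAngel KO libraries and 2 and 0 in control libraries, too few to check the genotype labels. The levels of tissue markers among the nuclear reads also differed. Of the fat body markers 6 of 7 fell and none rose in the fit described below. Their summed level was 119277 and 107746 reads per 1000000 nuclear reads (RPM) in DmAngel KO larvae against 364807 and 206391 RPM in control larvae. The remaining marker, apolpp, was not called (edgeR log2 0.15, adjusted p = 0.881). It had 82306 and 84408 RPM against 52643 and 40908 RPM, and made up most of the sum in DmAngel KO larvae. Lsp1beta, a larval serum protein, had 19925 and 12287 RPM against 118366 and 63264 RPM. Salivary gland markers summed to 2 and 3 reads in DmAngel KO libraries and 236 and 164 in control libraries, and all 3 that were tested fell. The glue protein gene Sgs3 was at 0 in both DmAngel KO libraries and at 74 and 65 reads in the control libraries. Midgut markers summed to 4216 and 2855 RPM against 6182 and 4492 RPM, with 4 of 8 lower, and the trypsin gene betaTry, the marker with the most reads, overlapped at 1839 and 1191 RPM against 2333 and 1464 RPM and was not called (adjusted p = 0.119). Of the muscle markers 0 of 8 were called, and their sum was 10313 and 5285 RPM in DmAngel KO larvae against 3033 and 3529 RPM in control larvae, with the myosin heavy chain gene Mhc at 5684 and 2365 RPM against 1531 and 1595 RPM. Mhc and Act57B made up most of that sum: in edgeR 5 of the 8 muscle markers had a log2 difference below 0, with a median of -0.19, and on TMM-scaled totals the sums overlapped, at 7712 and 4405 RPM against 3871 and 4436 RPM. The part of these marker differences in the results below was not tested. In bulk lysates fewer cells of a type, less RNA per cell and a difference in developmental stage cannot be told apart. The genotypes were matched by days after egg laying, and whether they had reached the same point of the instar was not tested.

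The mitoribosomal protein genes were sparsely sampled. Together they had 268 and 224 reads in DmAngel KO libraries and 252 and 91 in control libraries, 835 in all, and a gene had between 0 and 54 reads over the 4 libraries with a median of 9. A read was found for 67 and 65 of the 73 genes in DmAngel KO libraries and for 67 and 49 in control libraries. The control library with 49 was also the shallowest. At its depth of 457054 nuclear reads, 63.9 and 62.3 genes would be expected with a read in the DmAngel KO libraries, against 46.4 in the deeper control library. The same value was not computed for other nuclear genes. Those with 2 to 54 reads also had a 1.86-fold higher summed share of the nuclear reads in DmAngel KO larvae. In all 4 libraries 39 genes had reads, 1 gene (mRpL53) had none in any library, 37 genes had 1 to 9 reads, 28 had 10 to 19 and 7 had 20 or more. A count of 0 allows up to 3 reads, which is 5.29 and 5.79 RPM in DmAngel KO libraries and 2.26 and 6.56 RPM in control libraries, so that most single genes lay near the limit of detection.

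Summed over each subunit, the mitoribosomal protein mRNAs took a larger share of the nuclear reads in DmAngel KO larvae. The 47 large subunit genes had 319.4 RPM (95% exact Poisson interval 275 to 369) and 249.0 RPM (208 to 296) in DmAngel KO libraries, and 114.7 RPM (97.2 to 134) and 129.1 RPM (98.3 to 167) in control libraries. Both DmAngel KO libraries lay above both control libraries, and their intervals, which cover counting error only, did not overlap those of the controls. The means were 284 ± 49.8 RPM in DmAngel KO larvae and 122 ± 10.2 RPM in control larvae (SD, n = 2 each), a 2.33-fold difference (log2 1.22).

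The small subunit followed the same pattern. Its 26 genes had 153.5 RPM (123 to 189) and 183.4 RPM (148 to 224) in DmAngel KO libraries, and 75.5 RPM (61.4 to 91.8) and 70.0 RPM (47.9 to 98.8) in control libraries. Again the groups did not overlap. The means were 168 ± 21.1 RPM in DmAngel KO larvae and 72.7 ± 3.86 RPM in control larvae (SD, n = 2 each), 2.32-fold apart (log2 1.21). With 2 libraries a group an exact permutation test cannot give a p below 0.333, and no test was made of these sums. All 73 genes together made up 0.0473% and 0.0432% of the nuclear reads in DmAngel KO libraries, against 0.0190% and 0.0199% in control libraries. The 5 genes with the most reads over all libraries were mRpS9, mRpS5, mRpL28, mRpS30 and mRpL1. They held 19.5% of the members' reads in DmAngel KO larvae and 20.4% in control larvae, so the sum over all 73 genes did not rest on them. Within the subunits, the large subunit log2 difference was 1.22 without mRpL28 and the small subunit log2 difference 1.35 without mRpS9.

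**Figure D1:**
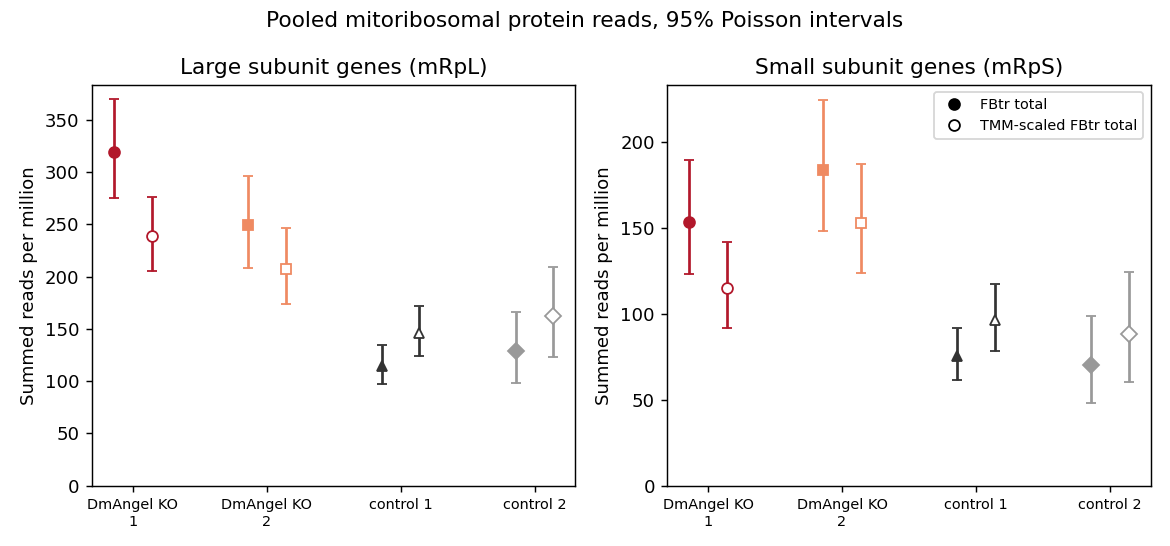
Summed reads per 1000000 nuclear reads (RPM) of the large subunit (mRpL) and small subunit (mRpS) genes in each library, with 95% exact Poisson intervals as bars; filled symbols are per nuclear (FBtr) read and open symbols TMM-scaled. On filled symbols the large subunit sat at 319.4 and 249.0 in DmAngel KO libraries, above 114.7 and 129.1 in control libraries, and the small subunit at 153.5 and 183.4, above 75.5 and 70.0.

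The size of this difference, and its direction, depended on what the reads were divided by. The 10 most abundant nuclear genes took 42.1% and 46.3% of the nuclear reads in DmAngel KO libraries and 53.5% and 52.6% in control libraries, and TMM factors, which correct library size for such dominant genes, were 1.34 and 1.20 against 0.783 and 0.796. On TMM-scaled totals the large subunit had 239 and 208 RPM in DmAngel KO libraries and 146 and 162 RPM in control libraries (log2 0.53), and the small subunit had 114.8 and 152.8 RPM against 96.3 and 88.0 RPM (log2 0.54). The libraries of the groups still did not overlap, at 1.45-fold for both subunits, but the counting intervals of some DmAngel KO and control libraries did. Divided by all reads, those of mitochondrial DNA included, both sums were lower in DmAngel KO larvae, with log2 values of -0.88 and -0.92, since the nuclear share of the reads was itself lower there.

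These shifts applied to nuclear genes in general. The median log2 difference over the 2994 nuclear genes tested was 0.70 per nuclear read and 0.01 on TMM-scaled totals, and over the 4235 genes that could be tested per read of any kind it was -1.50. Relative to that median the large subunit sum was higher by 0.52, 0.52 and 0.62 and the small subunit sum by 0.51, 0.52 and 0.58 on the 3 scales in this order. These are unlike measures, since the median is over single genes with enough reads to be tested. The sums pool the reads of members, most of which had too few to be tested. The sum over genes with 2 to 54 reads was itself above that median by 0.20, 0.21 and 0.28. The 9343 nuclear genes with 2 to 54 reads, the range of the members with at least 2 reads, summed to 67691 and 69204 RPM in DmAngel KO libraries and 35546 and 37880 RPM in control libraries, a log2 difference of 0.90 per nuclear read, 0.22 with TMM and -1.21 per read of any kind. The sums of the mitoribosomal genes therefore exceeded those of genes with like read numbers by 0.33 (large) and 0.31 (small) on the log2 scale. This gap was not tested.

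**Figure D2:**
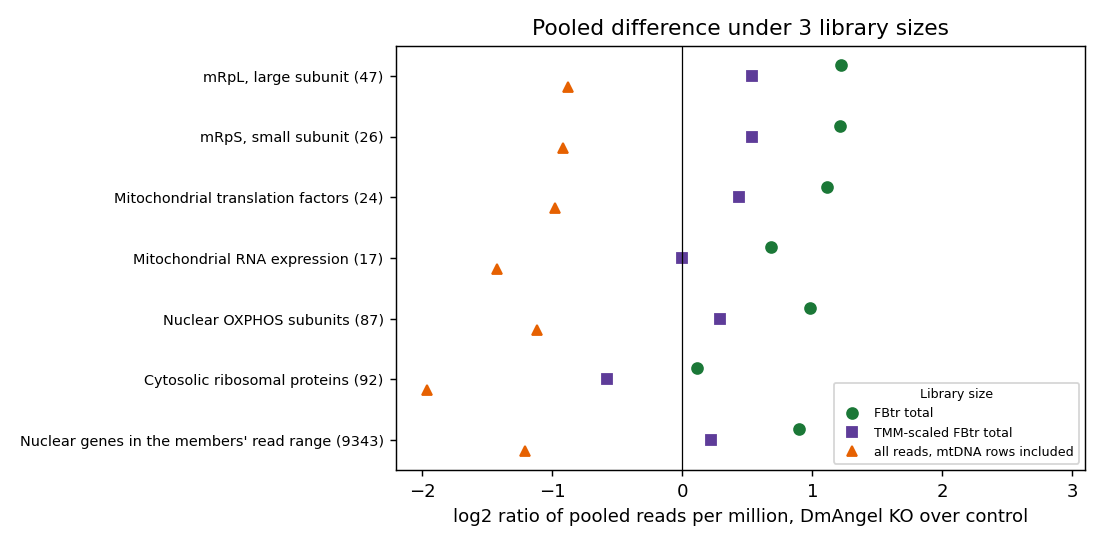
Log2 ratio of summed RPM, DmAngel KO over control, for each gene group (number of genes in brackets) under 3 library sizes: nuclear (FBtr) reads, TMM-scaled nuclear reads and all reads. Each group moved together with the scaling; both mitoribosomal sums sat at about 1.2, 0.5 and -0.9, to the right of the genes in the same read range at 0.90, 0.22 and -1.21.

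Within each subunit the proteins were split by the number in their symbol. L1 to L36 and S1 to S21 are called here those with a bacterial counterpart, and higher numbers mitochondria-specific. The number is not an exact guide and homology was not checked gene by gene, so a class can hold genes of the other kind. The 28 large subunit genes with a bacterial counterpart, which include those nearest the catalytic centre, had 238 and 185 RPM in DmAngel KO libraries and 69.4 and 96.3 RPM in control libraries (log2 1.35; 0.67 with TMM). The 19 mitochondria-specific large subunit genes had 81.2 and 63.7 RPM against 45.3 and 32.8 RPM (log2 0.89; 0.20 with TMM). All 4 classes were higher in both DmAngel KO libraries than in either control library per nuclear read. In the small subunit, the 14 genes with a bacterial counterpart had 90.0 and 120 RPM against 43.8 and 43.8 RPM (log2 1.26; 0.59 with TMM), and the 12 mitochondria-specific genes had 63.5 and 63.7 RPM against 31.7 and 26.3 RPM (log2 1.13; 0.45 with TMM). On TMM-scaled totals the mitochondria-specific large subunit class overlapped, at 60.7 and 53.1 RPM in DmAngel KO libraries against 57.8 and 41.3 RPM in control libraries, and the other 3 classes did not. Whether the classes differed from one another was not tested.

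Gene by gene, no member passed the test. In an edgeR quasi-likelihood fit over all nuclear genes, 4.18% of 2994 tested genes rose in DmAngel KO larvae and 7.01% fell at an adjusted p under 0.05 (125 and 210 genes; 250 and 372 with the replicate number as a block, where no member was called either). Only 2 of the 73 members, mRpL28 and mRpS5, passed the filter on low counts, which lay at 18.4 RPM in 2 libraries. Both passed it through the DmAngel KO libraries, as no member reached this level in a control library, so their direction is tied to the filter. Neither was called, in either direction, with 1 at an unadjusted p under 0.05. Without the filter 72 members were tested and 0 were called (1 at an unadjusted p under 0.05), and DESeq2 called 0 of 72 (0 at an unadjusted p under 0.05).

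Across the members, 30 of 73 (20 mRpL and 10 mRpS, 41.1%) had both DmAngel KO libraries above both control libraries per nuclear read, against 40.1% of the genes with 2 to 54 reads. In the other direction only mRpS18C (1.37%) had both below, against 5.9% of those genes, and 42 overlapped. On TMM-scaled totals 14 members (19.2%) lay above both controls, against 23.3% of genes in the read range, and 5 (6.85%; mRpL14, mRpL38, mRpL45, mRpS18C and mRpS26) lay below, against 12.3%. The share above was near the background on both scales. The 14 were mRpL16, mRpL20, mRpL24, mRpL27, mRpL35, mRpL37, mRpL50, mRpL52 and mRpL55 of the large subunit, and mRpS5, mRpS6, mRpS16, mRpS18A and mRpS28 of those named for the small subunit. The human relatives of mRpS18A and mRpS30 sit in the large subunit in spite of their names, so the split by symbol is not exact.

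**Figure D3:**
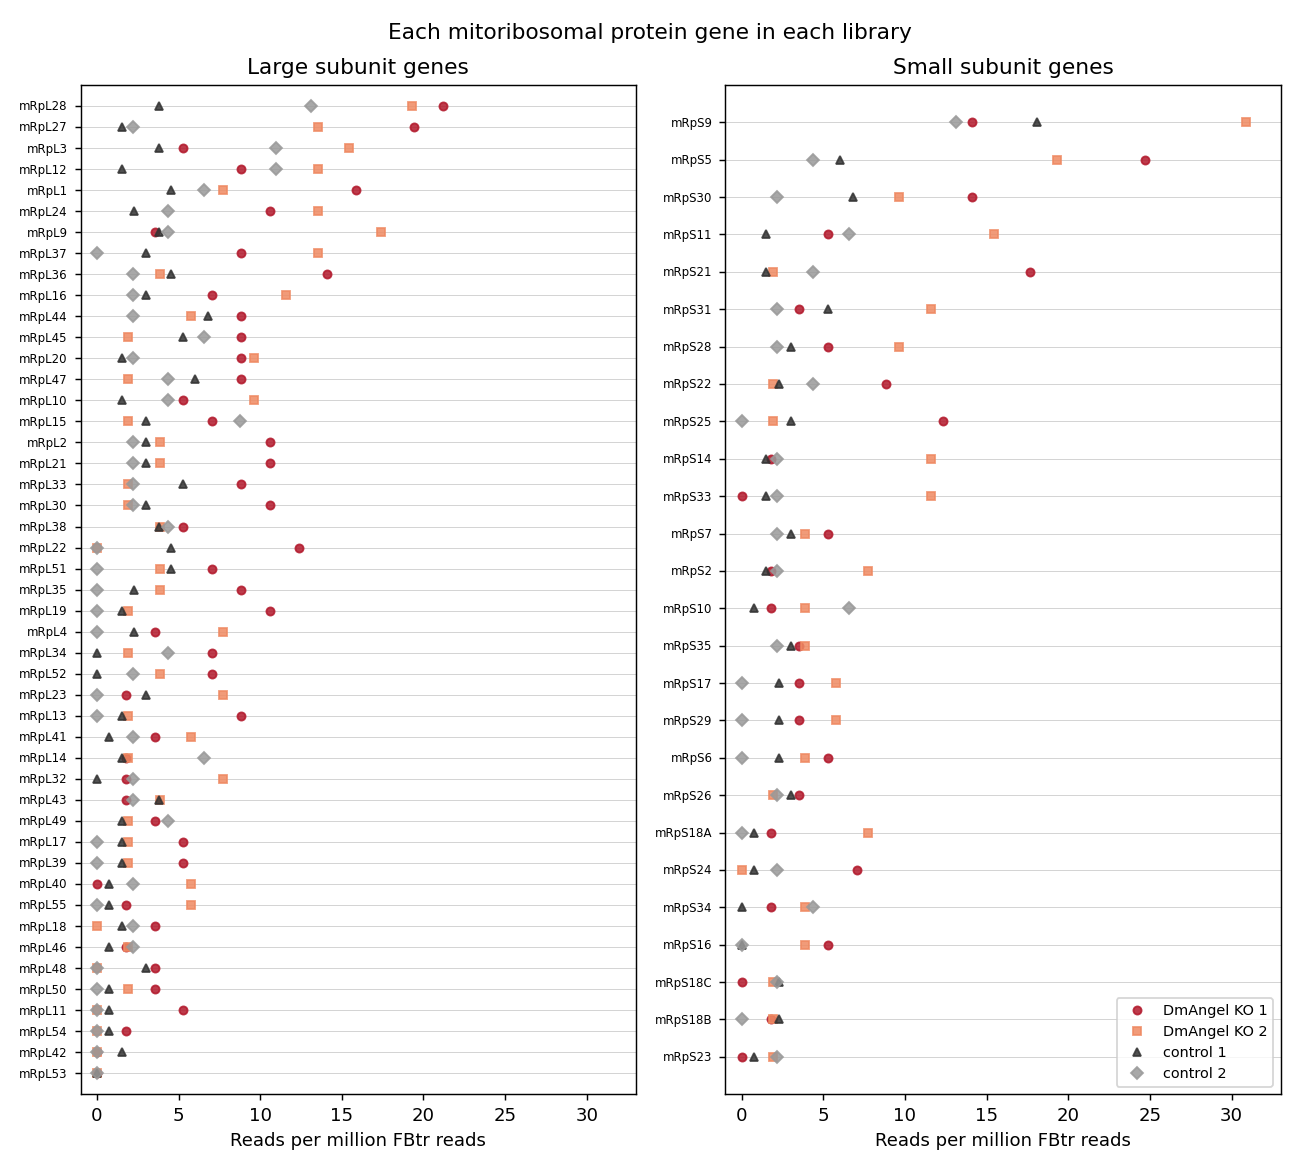
RPM of each of the 73 genes in each library, large subunit genes on the left and small subunit genes on the right, ordered by mean level. In 30 genes both DmAngel KO symbols lay right of both control symbols, and in 42 the groups overlapped.

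Among the large subunit genes, mRpL28 had the most reads. Its bacterial relative L28 is a structural protein of the large subunit. It (2L, 4973976 to 4975316, plus strand) had 12 and 10 reads (21.2 and 19.3 RPM) in DmAngel KO libraries and 5 and 6 reads (3.77 and 13.1 RPM) in control libraries. The groups did not overlap per nuclear read but did on TMM-scaled totals, and the 2 control libraries differed more than the DmAngel KO libraries did. In edgeR the log2 difference was 0.91 (SE 0.59, adjusted p = 0.334), and without control replicate 1 it was -0.15.

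mRpL27 (2L, 4458595 to 4459638, minus strand) is the counterpart of bacterial L27, which reaches into the catalytic centre. It had 11 and 7 reads (19.4 and 13.5 RPM) in DmAngel KO libraries and 2 and 1 reads (1.51 and 2.19 RPM) in control libraries. Both DmAngel KO libraries lay above both control libraries, but the control counts were under the 3 reads that a count of 0 allows. mRpL27 did not pass the filter on low counts and was not tested. Its isoform entries split unevenly: FBtr0335135 had 6 and 3 reads against 0 and 0, FBtr0345633 had 4 and 4 against 0 and 0, and FBtr0077451 had 1 and 0 against 2 and 1. How reads shared by isoforms were assigned is not given in the sources used here and these splits are uncertain.

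mRpL24 (2L, 4944256 to 4945361, minus strand), whose bacterial relative starts assembly of the large subunit, had 10.6 and 13.5 RPM (6 and 7 reads) in DmAngel KO libraries against 2.26 and 4.38 RPM (3 and 2 reads) in control libraries. mRpL1 (3R, 8301440 to 8302770, plus strand), of the mobile stalk beside the tRNA exit site, had 15.9 and 7.72 RPM (9 and 4 reads) against 4.53 and 6.56 RPM (6 and 3 reads). For both genes each DmAngel KO library lay above each control library per nuclear read, while mRpL1 overlapped on TMM-scaled totals. mRpL3 (X, 15761248 to 15762663, plus strand), whose bacterial relative lies close to the catalytic centre, overlapped with 5.29 and 15.4 RPM (3 and 8 reads) against 3.77 and 10.9 RPM (5 and 5 reads). mRpL9 (3R, 15330738 to 15331588, plus strand) overlapped too, at 3.53 and 17.4 RPM (2 and 9 reads) against 3.77 and 4.38 RPM (5 and 2 reads). mRpL12 (3L, 8956791 to 8957584, plus strand), the stalk protein that recruits translation factors, had 8.82 and 13.5 RPM (5 and 7 reads) in DmAngel KO libraries and 1.51 and 10.9 RPM (2 and 5 reads) in control libraries, which also overlapped.

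Of the small subunit genes, mRpS9 had the most reads of any member, 54 in all. Its bacterial relative touches the tRNA in the peptidyl site. It (3R, 7889277 to 7902667, minus strand) had 8 and 16 reads (14.1 and 30.9 RPM) in DmAngel KO libraries and 24 and 6 reads (18.1 and 13.1 RPM) in control libraries. The groups overlapped. Leaving mRpS9 out raised the small subunit log2 difference to 1.35.

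mRpS5 (3L, 24537236 to 24543534, plus strand), whose bacterial relative lines the channel where mRNA enters, had 14 and 10 reads (24.7 and 19.3 RPM) in DmAngel KO libraries and 8 and 2 reads (6.04 and 4.38 RPM) in control libraries. Both DmAngel KO libraries were above both controls by more than the spread within either group. Per nuclear read, 40.1% of nuclear genes in the members' read range also had both DmAngel KO libraries above both controls. mRpS5 passed the filter on low counts through its DmAngel KO libraries only. Its direction and the p-values below are therefore tied to that filter. The edgeR log2 difference was 1.28 (SE 0.50, unadjusted p = 0.0248, adjusted p = 0.119). Without TMM factors it was 1.96 and was called (adjusted p = 0.0139), on a scale where 24.5% of all tested genes were called higher. Per read of any kind it was -0.17, and on that scale mRpS9 and mRpL45 were called lower, as were 62.8% of 4235 tested genes.

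mRpS30 (X, 15786047 to 15788288, plus strand) had 14.1 and 9.65 RPM (8 and 5 reads) in DmAngel KO libraries against 6.79 and 2.19 RPM (9 and 1 reads) in control libraries, without overlap per nuclear read but with overlap on TMM-scaled totals. mRpS11 (3R, 17072732 to 17073795, plus strand), whose bacterial relative lies on the platform of the subunit, had 5.29 and 15.4 RPM (3 and 8 reads) against 1.51 and 6.56 RPM (2 and 3 reads). mRpS31 (3L, 16005193 to 16006599, plus strand), a mitochondria-specific protein, had 3.53 and 11.6 RPM (2 and 6 reads) against 5.28 and 2.19 RPM (7 and 1 reads). The groups overlapped for both mRpS11 and mRpS31. mRpS21 (3R, 13381276 to 13381809, minus strand) had 17.6 RPM (10 reads) in 1 DmAngel KO library and 1.93 RPM (1 read) in the other, against 1.51 and 4.38 RPM (2 and 2 reads) in control libraries, so 1 library alone made its mean high. mRpS16 (2R, 14172986 to 14173596, minus strand), an assembly protein of the small subunit in bacteria, was the only member with reads in both DmAngel KO libraries (3 and 2 reads, 5.29 and 3.86 RPM) and 0 in both control libraries. As these counts were at or under the 3 reads that a count of 0 allows, no fold was computed. mRpL42 was the only gene with reads in a control library and 0 in both DmAngel KO libraries.

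A longer coding sequence gives more fragments, so levels of different genes were compared per kilobase of coding sequence. The counts cover whole transcripts, untranslated ends included, so this divisor raises genes whose coding part is a small share of the transcript. mRpS21 has 261 coding bases in a longest transcript of 475, mRpL33 192 in 349, mRpL27 414 in 896 and mRpS9 1185 in 1293. The order below therefore holds for this divisor only. Across the 73 genes the reads over all libraries rose with coding length, with a Spearman rho of 0.43 as a description across genes, which share libraries and are not independent replicates. Per kilobase, and averaged over the 4 libraries, the highest levels were those of mRpS21 (24.4 RPM per kilobase over 261 bases), mRpL33 (23.7 over 192 bases) and mRpL27 (22.1). They were followed by mRpS9 (16.1), mRpL36 (16.1), mRpL12 (15.9) and mRpL28 (15.8), while mRpS5 (11.1) ranked 12 and the long mRpS30 (4.90) ranked 50. The order differed between the groups: per kilobase, mRpL27 had 39.8 RPM in DmAngel KO libraries and 4.47 RPM in control libraries (rank 1 and 26), mRpS21 had 37.5 and 11.3 RPM (rank 2 and 4) and mRpL33 had 28.0 and 19.5 RPM (rank 3 and 1). Without DmAngel KO replicate 1 the mean over the remaining libraries was 9.98 RPM per kilobase for mRpS21, 13.9 for mRpL27 and 9.18 for mRpL36. Neighbours in this order were set by a few reads each and cannot be separated. The rho between the members' levels in the 2 DmAngel KO libraries was 0.17, that between the 2 control libraries 0.22 and that between the group means 0.52, so the order of single genes was poorly repeated between replicates.

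**Figure D4:**
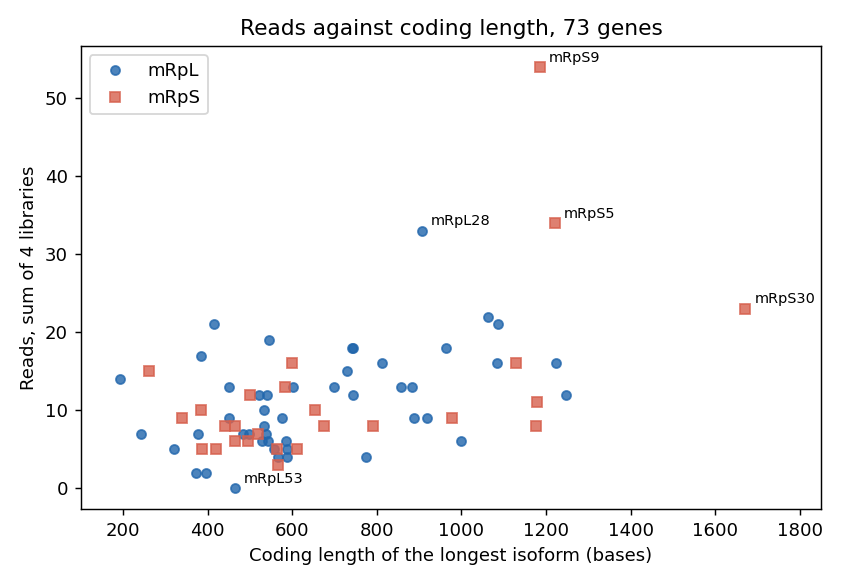
Reads summed over the 4 libraries against the coding length of the longest isoform in bases, 1 point a gene, mRpL as circles and mRpS as squares. Longer genes tended to have more reads (Spearman rho 0.43); mRpS9 stood highest with 54 reads and mRpL53 had 0.

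A pair of small subunit genes carries other names. tko, the relative of bacterial S12 at the decoding site, had 14.1 and 11.6 RPM (8 and 6 reads) in DmAngel KO libraries and 0.755 and 8.75 RPM (1 and 4 reads) in control libraries. bonsai, the relative of S15, had 10.6 and 7.72 RPM (6 and 4 reads) against 6.04 and 2.19 RPM (8 and 1 reads). Per nuclear read the DmAngel KO libraries of both genes were above the controls, as for 40.1% of genes with 2 to 54 reads. On TMM-scaled totals both genes overlapped, tko with 10.6 and 9.65 RPM against 0.963 and 11.002 RPM and bonsai with 7.92 and 6.43 RPM against 7.71 and 2.75 RPM, and neither passed the filter on low counts.

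Other nuclear genes of mitochondrial gene expression gave the setting for these values. The 24 genes for mitochondrial translation factors and tRNA synthetases summed to 304 and 305 RPM in DmAngel KO libraries and 119 and 162 RPM in control libraries, a log2 difference of 1.11 per nuclear read and 0.44 with TMM. Of these 3 were tested and 0 were called by edgeR. The elongation factor gene mEFTu1 had 46 and 27 reads in DmAngel KO libraries and 39 and 17 in control libraries (log2 0.34, SE 0.42, adjusted p = 0.648), and the synthetase genes MetRS-m and LeuRS-m had log2 differences of 0.01 (adjusted p = 0.987) and 0.23 (adjusted p = 0.820). The 17 genes for mitochondrial transcription, RNA processing and RNA stability summed to 145 and 129 RPM against 83.0 and 87.5 RPM, a log2 difference of 0.68, and 0.00 with TMM. The 2 tested were not called: scu, a subunit of the enzyme that cuts tRNA 5′ ends, had a log2 difference of -0.68 (adjusted p = 0.389) and bsf, an RNA-binding protein of the LRPPRC family, 0.57 (adjusted p = 0.510).

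The 87 nuclear genes for oxidative phosphorylation subunits had 4611 and 3623 RPM in DmAngel KO libraries and 1925 and 2249 RPM in control libraries, a log2 difference of 0.98, and 0.29 with TMM. Of these 50 were tested, 0 were called in either direction, and their median edgeR log2 difference was 0.28. The 92 genes of the cytosolic ribosome, which translates the mitoribosomal protein mRNAs, had 5421 and 3621 RPM against 3475 and 4877 RPM, overlapping between the groups, with a log2 difference of 0.11, and -0.58 with TMM. Of 78 tested, 1 rose and 2 fell, with a median of -0.64. The log2 difference of the mitoribosomal sums was thus above that of the cytosolic sum on each scale, although the cytosolic sum itself was far larger. The difference between the lists was not tested.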

How the data were processed

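Per the labels and the study's methods, reads were merged and trimmed with BBMerge and BBDuk, non-coding RNA was subtracted and the rest aligned to the sense strand of Ensembl transcripts (BDGP6) with Bowtie2. The authors deposited raw counts per transcript for each library. The counting command and the treatment of reads shared by isoforms are not given in the sources used here. Of 34917 entries, 34882 were nuclear transcripts (FlyBase FBtr identifiers), and 34713 of these matched the annotation of Ensembl release 115 (BDGP6.54), whose coordinates are printed. Counts were summed per gene. In 3 members exons overlap another gene: mRpL13 shares 236 bases with CG10602, mRpL53 829 with CG33155 and mRpS14 30 with CG32533, so their reads are uncertain.

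RPM are reads per 1000000 nuclear reads. Genes were tested with edgeR 4.0.16 (quasi-likelihood, TMM, filterByExpr with a minimum count of 10, R 4.3.3) over all nuclear genes of all 4 libraries, adjusted by Benjamini-Hochberg and called under 0.05. The script was first tested on simulated counts of 2994 genes. It recovered 171 of 200 genes changed by a log2 of 3, with 6 false calls. Smaller changes and genes below the filter were not simulated, so this gives no power for most members. DESeq2 1.42.0, other library sizes, other filters, a replicate block and leaving out each library were alternatives. Intervals are exact Poisson at 95%, and as reads carry no molecular identifiers they cover counting error only. The labels' replicates are described as technical in the series text and as biologically independent in the study, so p-values measure only the spread between these libraries. Named genes were all members called, mRpL12 and mRpS16, the 6 other genes of each subunit with the highest mean RPM, the 4 largest differences each way among tested members without overlap, called genes of the pathway lists, tko and bonsai, and the top gene of each marker list. Members named beside these, the tested genes of the pathway lists and those with the highest level per kilobase, were chosen after their values were seen. The members and lists were chosen with earlier results of these data known. The list symbol mEFG2 was not matched and was not analysed here; mtRNApol was matched under its current symbol PolrMT.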

Additional observations from a re-analysis of the deposited data

How the results depend on the processing

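Per nuclear read, the large subunit difference (log2 1.22) became 0.53 with TMM factors, -0.88 per read of any kind, 0.90 with the fat body, salivary gland and midgut markers taken out of the total and 0.33 relative to genes with 2 to 54 reads, and it ranged between 1.03 and 1.39 when each library was left out. The small subunit difference (1.21) became 0.54, -0.92, 0.87 and 0.31 under the same changes, 1.35 without mRpS9, and it ranged between 1.08 and 1.33 when each library was left out. Restricted to genes that passed the filter it was 2.08, which is no pooled value: it is the ratio of mRpS5 alone, which passed through its DmAngel KO libraries. The marker, read-range and TMM-overlap alternatives were chosen after seeing the data. Without TMM factors 1 member (mRpS5, log2 1.96) was called higher. Per read of any kind 2 members (mRpS9 and mRpL45) and 1 RNA expression gene (scu) were called lower, and mRpS5 was at -0.17. mRpL28 ranged between -0.15 and 1.59 when each library was left out, with the lowest without control replicate 1, and mRpS5 between 1.05 and 1.52. In the counts of all genes, 125 rose and 210 fell; without TMM factors 735 rose and 116 fell, per read of any kind 30 and 2658, in DESeq2 60 and 184, and between 92 and 175 rose and between 118 and 433 fell when each library was left out. The study describes 2 independent profiling experiments with both genotypes prepared in parallel. The sources used here do not tie the replicate numbers to these experiments. Across the 2994 tested genes, the difference between replicates 1 and 2 in DmAngel KO larvae correlated weakly with that in control larvae (0.187). With the replicate block 250 genes rose and 372 fell, 0 members were called higher and 0 lower, mRpS5 was at 1.33 and mRpL28 at 0.85, and the pooled differences were 1.21 and 1.21. No transcript entry of a member passed the filter. The cause of these changes was not tested. At 835 reads over 73 genes, depth limited every statement on a single gene.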

Other observations

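The 3 genes that share exon bases with a member had reads of their own. CG33155, which overlaps mRpL53, had 9 and 2 reads in DmAngel KO libraries and 2 and 0 in control libraries, while mRpL53 had 0 in all 4. CG10602, which overlaps mRpL13, had 26 and 26 reads against 31 and 7, and CG32533, which overlaps mRpS14, had 3 and 3 against 2 and 1. Between replicates, the members' counts varied by a chi-square of 1.59 per degree of freedom in DmAngel KO libraries and 1.16 in control libraries over 70 degrees of freedom, where counting error alone gives about 1. The 73 genes were spread over the genome, with 12 on 2L, 12 on 2R, 17 on 3L, 21 on 3R and 11 on X.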
